A study of Mus musculus with 6 samples.

Results

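The 33 genes described here are transcripts of T cells and natural killer (NK) cells, taken by their symbols from a table of 29734 genes measured in mouse liver by RNA sequencing of poly(A)-selected RNA. All 33 symbols were found, each on 1 row. They were set apart as 18 genes of the T cell receptor complex, its co-receptors and its proximal signalling (the T cell side), 12 genes of cytotoxic granules, NK cell receptors and the T-box factors (the cytotoxic and NK side), and 3 genes on neither side (Pdcd1, Tox and Itgae). The libraries came from male mice fed a Western diet (WD in the labels) for 20 weeks from an age of 8 weeks, 3 with the genotype Prdx1C52S (numbered 1, 2 and 4) and 3 WT (6, 8 and 9). Prdx1C52S is an allele of peroxiredoxin 1, a thiol peroxidase, in which a cysteine is replaced by serine. All libraries share the diet, and no group on a control diet was analysed here. The strain, whether the allele is carried by all cells and whether each library is 1 animal could not be learned from the labels, so p-values measure the spread between these libraries, which may be technical. From the title of the series, the comparison asks whether transcripts of inflammation differ between the genotypes in steatohepatitis, that is, fatty liver with inflammation.

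T cells recognise peptides through a receptor of alpha and beta chains, which signals through the CD3 chains and the kinases LCK and ZAP70. CD4 marks helper and CD8 cytotoxic T cells. NK cells lack this receptor and read inhibitory receptors and activating ones, among the latter NKp46 and NKG2D. They share with cytotoxic T cells the granule proteins perforin and granzymes. Both cell types are resident in the liver, and CD8 T cells accumulate in steatohepatitis.

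Most members were scarce. Library totals ran from 60326469 to 76164949 deposited counts. With 1 sequenced fragment taken as worth about 4 counts, an approximate reading of the low counts, a library held about 15.1 M to 19.0 M fragments. A member's 3 libraries together held about 2 to 320 fragments in Prdx1C52S and 7 to 390 in WT, and intervals given with them cover counting error only. Levels are in FPKM, fragments scaled to transcript length and library depth. FPKM of the 2 groups are not on one footing for all genes. Of the 18931 genes tested, 77.5% had a lower mean FPKM in Prdx1C52S, while TMM scaling, which aligns the bulk of genes, gave a median log2 fold change of -0.03 over all genes and library totals alone gave -0.34. WT 8 stands apart from the other libraries (mean Pearson correlation with the other 5 of 0.937, against 0.958 to 0.966 for the rest), and it had the highest FPKM of all 6 libraries for 23 of the 33 members. Fitted values without it are given beside those of the members and lists. In bulk tissue, fewer cells of a type and less RNA per cell cannot be told apart.

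Most T cell receptor, CD3 and CD8 transcripts were several-fold lower in Prdx1C52S livers than in WT livers in FPKM, while Cd4 and the NK receptor genes lay closer together. No member passed an adjusted p of 0.05 with all 6 libraries in edgeR's quasi-likelihood test with Benjamini-Hochberg adjustment over the 18931 genes (0% of all genes were called in either direction). At an unadjusted p under 0.05, 17 of the 32 tested members (53.1%) were lower in Prdx1C52S and 0 higher, against 14.8% of all genes tested lower and 11.5% higher. Ifng was too low to be tested with all 6 libraries. The median log2 fold change (Prdx1C52S over WT) was -1.25 over the 32 tested members, and -0.90 over the 33 tested without WT 8. DESeq2 called 11 members lower at an adjusted p under 0.05 (9.06% of the genes it gave an adjusted p were called lower and 6.11% higher). These were Trac, Trbc2, Cd3e, Cd8a, Cd8b1, Cd5, Cd6, Cd28, Gzmb, Gzmk and Pdcd1. DESeq2 was run on the deposited counts, about 4 per fragment, which a count model may take as more precise than they are. Gzmk and Pdcd1 rest on about 3 and 2 fragments in Prdx1C52S. Without WT 8, edgeR called 3 lower, Trac, Cd3e and Cd8a (1.94% of all genes were called lower and 2.7% higher), and 12 were lower at an unadjusted p under 0.05 (11.1% of all genes lower, 11.2% higher). Without WT 9 it called 1, Cd8a (0.351% of all genes lower, 0.321% higher). That call is at the threshold, with an edgeR adjusted p of 0.0499, beside 0.0503 for Cd3e and 0.0510 for Trac. At an unadjusted p under 0.05 DESeq2 had 18 members lower, against 10.8% lower and 7.61% higher of the 29692 genes it gave a p. That set is wider than the 18931 genes of edgeR, since no low-count filter was applied. Neither tool called a member higher. All 33 members had a lower mean FPKM in Prdx1C52S, as did 77.5% of all genes tested, and 29 of 32 had a negative log2 fold change, against 53.0% of all genes. Each Prdx1C52S library lay below each WT library in FPKM for 19 members and above for 0, against 36.7% of all genes below and 6.09% above, and after TMM scaling for 14 and 0, against 18.0% and 16.9%.

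Other ways of fitting gave different numbers of members called lower, each against its own share of all genes. By voom with library quality weights 9 members were lower (5.08% of all genes lower, 5.15% higher). By limma on log2(FPKM + 1) it was 1, Trac (0.629% lower, 0.213% higher), and on log2(FPKM + 0.1) 5, Trac, Trbc2, Cd8a, Gzmk and Pdcd1 (1.18% lower, 0.309% higher). Trac and Cd8a were the 2 called in edgeR with library totals (0.66% lower, 0.185% higher, and at an unadjusted p under 0.05, 30.4% and 3.73%). The same 2 were called without a low-count filter (0.306% lower, 0.353% higher) and with a minimum of 1 CPM in 3 libraries (0.457% lower, 0.577% higher). They were also the 2 called with counts divided by 4 (0.257% lower, 0.276% higher), both at an edgeR adjusted p of 0.0499. DESeq2 and voom were not run on counts divided by 4.

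**Figure D1:**
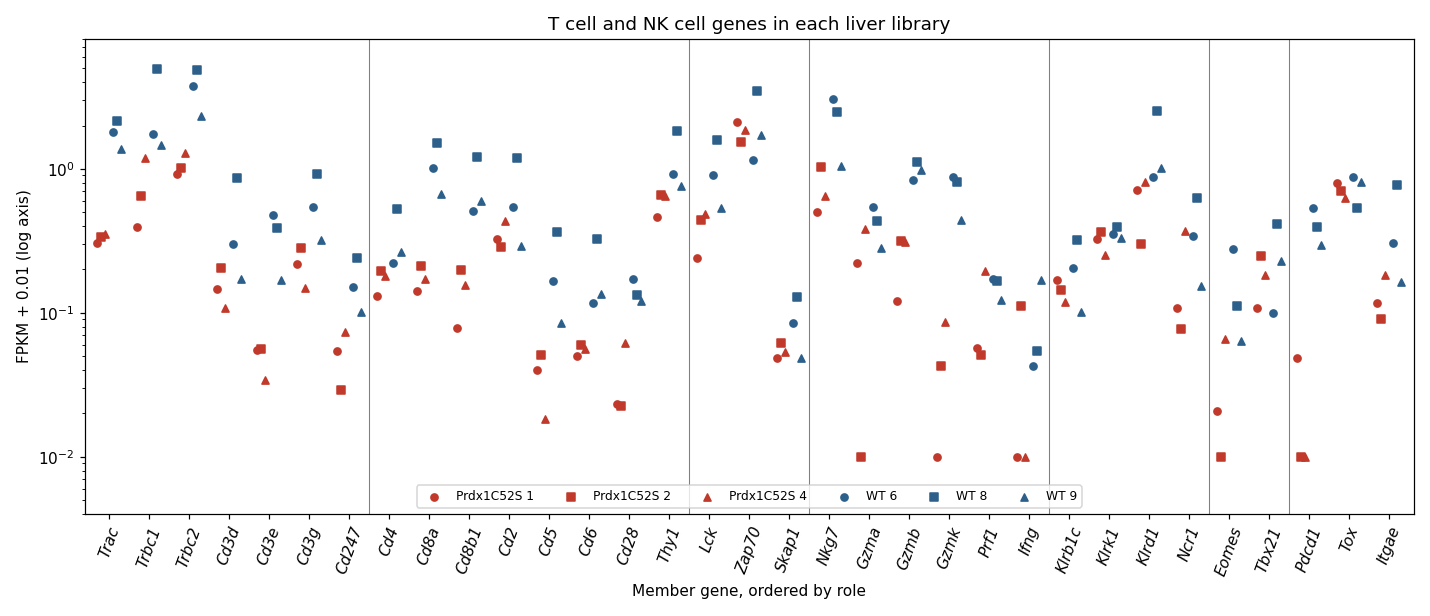
FPKM (plus 0.01, log axis) of each of the 33 members in each of the 6 libraries, with genes in order of role and grey lines between roles. Prdx1C52S libraries are red and WT libraries blue. In 19 members every Prdx1C52S library lies below every WT library, against 36.7% of all genes tested. After TMM scaling this holds for 14 members, against 18.0% of all genes. Points at the bottom are values of 0.

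The constant region of the T cell receptor alpha chain, Trac (chromosome 14, 54220521 to 54224206, plus strand, GRCm38), was at 0.298, 0.324 and 0.342 FPKM in Prdx1C52S 1, 2 and 4, against 1.80, 2.15 and 1.36 FPKM in WT 6, 8 and 9. The groups were far apart, and the 3 Prdx1C52S values were close to each other. These values rest on about 18 fragments in the Prdx1C52S libraries and 103 in the WT libraries together, a ratio of fragment rates of 0.182 (exact 95% interval 0.104 to 0.303). In edgeR the log2 fold change came to -2.13 (SE 0.32) with an adjusted p of 0.0559, and without WT 8 to -2.08 (SE 0.36) with an adjusted p of 0.028. Trbc2, a constant region of the beta chain, was at 0.916, 1.004 and 1.28 FPKM in Prdx1C52S 1, 2 and 4, against 3.75, 4.83 and 2.32 FPKM in WT 6, 8 and 9 (edgeR log2 fold change -1.44 with SE 0.32, adjusted p = 0.084). Its sister region Trbc1 was at 0.384, 0.641 and 1.18 FPKM in Prdx1C52S, against 1.73, 4.91 and 1.45 FPKM in WT (log2 fold change -1.47, edgeR adjusted p = 0.151, and -0.90 without WT 8). Both beta regions were lower in each Prdx1C52S library than in each WT library, but their annotated transcripts are 95.6% identical over 521 aligned bases, so the split of reads between them is uncertain.

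Among the CD3 chains, which carry the receptor's signal into the cell, Cd3e (chromosome 9, 44998740 to 45009622, minus strand) was at 0.0451, 0.0458 and 0.0242 FPKM in Prdx1C52S 1, 2 and 4, against 0.470, 0.379 and 0.158 FPKM in WT 6, 8 and 9. No Prdx1C52S library reached the lowest WT library. About 10 fragments in Prdx1C52S stand against 85 in WT (rate ratio 0.123, interval 0.0568 to 0.237), with a log2 fold change in edgeR of -2.77 (SE 0.52) and an adjusted p of 0.0737. Without WT 8 edgeR gave -2.78 (SE 0.57) and an adjusted p of 0.0428. The gene overlaps 2 other annotated genes, 1 on each strand. Cd3g and Cd3d, neighbours on chromosome 9, differed less: Cd3g was at 0.207 ± 0.0675 FPKM in Prdx1C52S and 0.585 ± 0.303 FPKM in WT (SD, n = 3 each), and Cd3d at 0.143 ± 0.0488 FPKM in Prdx1C52S and 0.433 ± 0.366 FPKM in WT. For Cd3d the groups overlapped, since Prdx1C52S 2 (0.194) lay above WT 9 (0.162), and its log2 fold change of -1.22 was -0.47 without WT 8. Cd247, the zeta chain, which NK cells also use, was at 0.0421 ± 0.0222 FPKM in Prdx1C52S and 0.154 ± 0.07 FPKM in WT (log2 fold change -1.52, edgeR adjusted p = 0.136), and it overlaps Pou2f1 on the other strand.

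The co-receptors split. Cd8a (chromosome 6, 71373427 to 71379169, plus strand), the alpha chain of CD8, was at 0.132, 0.200 and 0.161 FPKM in Prdx1C52S 1, 2 and 4, against 1.01, 1.49 and 0.657 FPKM in WT 6, 8 and 9. The lowest WT library lay above the highest Prdx1C52S library by a wide margin. The rate ratio was 0.159 (36 against 236 fragments, interval 0.109 to 0.227) and edgeR gave a log2 fold change of -2.31 (SE 0.33) at an adjusted p of 0.0553, with -2.11 (SE 0.33) at an adjusted p of 0.0228 without WT 8. The CD8 beta chain Cd8b1, the neighbouring gene, was at 0.0681, 0.189 and 0.145 FPKM in Prdx1C52S, against 0.50, 1.20 and 0.586 FPKM in WT (edgeR log2 fold change -2.11 with SE 0.51, adjusted p = 0.0875). Cd4 was at 0.122, 0.185 and 0.171 FPKM in Prdx1C52S, against 0.211, 0.518 and 0.256 FPKM in WT (edgeR log2 fold change -0.69 with SE 0.38, adjusted p = 0.294), and -0.35 without WT 8. The Cd4 groups did not overlap in FPKM but did after TMM scaling.

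The other surface molecules differed among themselves. Cd5 and Cd6, linked genes on chromosome 19 whose products dampen receptor signalling, and Cd28, the main co-stimulatory receptor, had log2 fold changes of -2.44, -1.55 and -2.05, with edgeR adjusted p-values of 0.106, 0.102 and 0.117. Cd5 was at 0.0299, 0.0405 and 0.0083 FPKM in Prdx1C52S, against 0.157, 0.355 and 0.0751 FPKM in WT. Cd28 rested on about 9 fragments in Prdx1C52S and 50 in WT. In these 3 genes each Prdx1C52S library lay below each WT library. The adhesion molecule Cd2 and Thy1, which stromal cells also express, had smaller values, with log2 fold changes of -0.59 and -0.64 that were -0.07 and -0.32 without WT 8. Cd2 overlapped between the groups, with 0.317, 0.274 and 0.424 FPKM in Prdx1C52S and 0.533, 1.18 and 0.279 FPKM in WT.

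Of the proximal signalling genes, Lck, the kinase that phosphorylates the CD3 chains, was at 0.380 ± 0.132 FPKM in Prdx1C52S and 0.995 ± 0.53 FPKM in WT (log2 fold change -1.02, edgeR adjusted p = 0.184). Zap70, the kinase that binds the phosphorylated chains, did not share this pattern. It was at 2.10, 1.51 and 1.85 FPKM in Prdx1C52S 1, 2 and 4, against 1.15, 3.44 and 1.72 FPKM in WT 6, 8 and 9, with mixed groups. In edgeR its log2 fold change came to 0.14 (SE 0.32) with an adjusted p of 0.813, to 0.53 without WT 8 and -0.12 without WT 6, and it was -0.21 with library totals in place of TMM. Per length Zap70 was more abundant than Cd3e in every library: its FPKM was 33.1 to 76.5 times that of Cd3e in Prdx1C52S libraries and 2.45 to 10.9 times in WT libraries. It overlaps a pseudogene on the other strand. The adaptor Skap1 rested on about 20 fragments in Prdx1C52S and 37 in WT (0.0442 ± 0.00656 FPKM in Prdx1C52S and 0.0778 ± 0.0407 FPKM in WT).

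The granule genes were uneven. Gzmk, granzyme K, was at 0, 0.0324 and 0.0764 FPKM in Prdx1C52S 1, 2 and 4, against 0.865, 0.798 and 0.429 FPKM in WT 6, 8 and 9. With about 3 fragments in Prdx1C52S and 60 in WT, the rate ratio was 0.0521 (interval 0.0105 to 0.16), and the edgeR adjusted p was 0.0874. The gene overlaps Esm1 on the other strand. Gzmb, granzyme B, was at 0.111, 0.304 and 0.299 FPKM in Prdx1C52S, against 0.824, 1.11 and 0.974 FPKM in WT (edgeR log2 fold change -1.71 with SE 0.45, adjusted p = 0.0965, also -1.71 without WT 8). The membrane protein gene Nkg7, shared by cytotoxic T and NK cells, was at 0.490, 1.02 and 0.636 FPKM in Prdx1C52S, against 3.04, 2.49 and 1.03 FPKM in WT (edgeR log2 fold change -1.29 with SE 0.48, adjusted p = 0.152). In Gzmk and Gzmb the groups were clearly separate, and in Nkg7 Prdx1C52S 2 and WT 9 nearly met. Gzma and the pore-forming Prf1 overlapped between the groups. Gzma was at 0.211, 0 and 0.371 FPKM in Prdx1C52S, against 0.534, 0.424 and 0.271 FPKM in WT, and Prf1 at 0.0468, 0.041 and 0.184 FPKM in Prdx1C52S, against 0.162, 0.155 and 0.112 FPKM in WT. Ifng, the cytokine of both cell types, had about 3 fragments in Prdx1C52S and 7 in WT, so that no difference was detectable at this depth.

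The promoters of Gzmb, Gzmk, Nkg7 and Cd3e are shown because T-box factors, which bind granule gene promoters, are themselves members. They are the 250 bases before the annotated start, from RefSeq on GRCm38.p6, 5′ to 3′ on the gene's strand. Gzmb is at chr14:56262335-56262584 (minus strand), Gzmk at chr13:113180966-113181215 (minus), Nkg7 at chr7:43436888-43437137 (plus) and Cd3e at chr9:45009612-45009861 (minus). Capitals mark matches, on either strand, to 6 motifs: the T-box motif read as TCACACC, the RUNX motif as TGTGGT, the ETS motif as AGGAAG, the NFAT motif as TGGAAA, the GATA motif as AGATAA, and the TATA motif as TATAAA.
Gzmb: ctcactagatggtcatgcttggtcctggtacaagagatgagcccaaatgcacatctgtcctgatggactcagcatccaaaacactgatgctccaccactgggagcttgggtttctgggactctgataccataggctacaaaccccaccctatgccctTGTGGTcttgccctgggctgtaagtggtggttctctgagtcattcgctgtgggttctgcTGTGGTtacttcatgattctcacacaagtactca
Gzmk: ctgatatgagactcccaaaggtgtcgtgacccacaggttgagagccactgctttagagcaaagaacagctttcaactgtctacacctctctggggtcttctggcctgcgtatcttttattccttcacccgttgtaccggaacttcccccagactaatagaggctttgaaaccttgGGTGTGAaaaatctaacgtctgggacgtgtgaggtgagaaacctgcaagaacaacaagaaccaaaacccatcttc
Nkg7: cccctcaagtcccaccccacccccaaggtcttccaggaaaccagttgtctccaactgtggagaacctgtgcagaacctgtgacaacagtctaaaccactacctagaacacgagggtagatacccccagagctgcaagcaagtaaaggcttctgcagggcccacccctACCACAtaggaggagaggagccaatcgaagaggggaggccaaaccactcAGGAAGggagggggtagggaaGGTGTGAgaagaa
Cd3e: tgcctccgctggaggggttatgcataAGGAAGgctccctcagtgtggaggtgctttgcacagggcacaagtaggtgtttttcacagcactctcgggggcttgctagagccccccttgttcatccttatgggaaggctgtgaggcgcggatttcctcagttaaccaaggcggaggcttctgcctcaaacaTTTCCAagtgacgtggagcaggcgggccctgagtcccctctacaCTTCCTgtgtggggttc
The T-box letters were found in Gzmk, 75 bases before the RefSeq start, and in Nkg7, 13 bases before it. The measured genes can start elsewhere: Gzmk spans 113171608 to 113225908 and Nkg7 43437073 to 43438249. The Gzmk window thus lies inside the measured gene, and the Nkg7 window reaches into it. The Gzmb window holds the RUNX letters 2 times, 93 and 34 bases before the start, and Nkg7 holds them at 83 bases. Cd3e has ETS letters at 224 and 17 bases before its start. Of the members, 20 had a promoter in the table, 24 promoters in all, with the 2 of Ncr1 overlapping. The RUNX letters were in 10 of these 24 (41.7%), against 14.0% of 32851 promoters of the same length, the ETS letters in 13 (54.2%), against 29.5%, and the T-box letters in 2 (8.33%), against 3.33%. NFAT letters were in 4 (16.7%, against 18.6%), and the GATA and TATA letters in 1 each (4.17%, against 9.99% and 12.4%). The RUNX letters also stand in the windows of Klrk1 and Ncr1, whose groups overlapped.

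Among the NK cell receptors none was lower at an unadjusted p under 0.05. Ncr1, which encodes NKp46 and is the most NK-restricted member, was at 0.0986, 0.0669 and 0.359 FPKM in Prdx1C52S 1, 2 and 4, against 0.332, 0.622 and 0.143 FPKM in WT 6, 8 and 9. Prdx1C52S 4 was above 2 of the WT libraries. edgeR gave a log2 fold change of -0.74 (SE 0.75) at an adjusted p of 0.568, with -1.76 without Prdx1C52S 4 and -0.29 without WT 8. Klrk1, encoding the activating receptor NKG2D, had overlapping groups, with 0.314, 0.355 and 0.241 FPKM in Prdx1C52S and 0.344, 0.383 and 0.322 FPKM in WT. With edgeR it had a log2 fold change of 0.09 (SE 0.24) under TMM scaling and -0.21 with library totals, on about 132 and 157 fragments. Klrb1c, the NK1.1 gene, was at 0.134 ± 0.0249 FPKM in Prdx1C52S and 0.198 ± 0.109 FPKM in WT, and it overlaps another gene on the same strand. Klrd1, the CD94 chain of inhibitory and activating receptor pairs, was at 0.597 ± 0.268 FPKM in Prdx1C52S and 1.46 ± 0.904 FPKM in WT, where WT 8 alone held 2.50. Klrd1 was the 1 of the 4 NK cell receptors whose groups did not overlap in FPKM. Its highest Prdx1C52S library was at 0.795 (Prdx1C52S 4) and its lowest WT library at 0.868 (WT 6). After TMM scaling the Klrd1 groups overlapped. The log2 fold change of Klrd1 was -0.91, and -0.44 without WT 8.

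The T-box factors that drive cytotoxic programmes were both rare. Eomes was at 0.0106, 0 and 0.0554 FPKM in Prdx1C52S, against 0.267, 0.102 and 0.0539 FPKM in WT, about 5 and 36 fragments. Its log2 fold change of -2.42 had an SE of 1.18 (edgeR adjusted p = 0.238) and ran from -4.32 without Prdx1C52S 4 to -1.48 without WT 6. Tbx21, which encodes T-bet, was at 0.170 ± 0.0697 FPKM in Prdx1C52S and 0.237 ± 0.158 FPKM in WT, with a log2 fold change of -0.12 that was 0.35 without WT 8. In both the groups overlapped.

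Pdcd1, the inhibitory receptor PD-1 of activated and exhausted T cells, had the lowest fitted fold change of all members. It was at 0.0387, 0 and 0 FPKM in Prdx1C52S 1, 2 and 4, against 0.523, 0.385 and 0.284 FPKM in WT 6, 8 and 9. About 2 fragments in Prdx1C52S stand against 48 in WT, a rate ratio of 0.0434 (interval 0.00512 to 0.166). The fitted log2 fold change of -4.40 (SE 1.08, edgeR adjusted p = 0.0894) depends on the prior count at such levels, and it ran from -8.85 without Prdx1C52S 1 to -3.83 without Prdx1C52S 2. Tox, a nuclear factor linked to T cell exhaustion that other tissues also express, had mixed groups: 0.788, 0.694 and 0.614 FPKM in Prdx1C52S, against 0.865, 0.522 and 0.794 FPKM in WT, with a log2 fold change of 0.20 (SE 0.28) that was -0.056 without WT 8 and -0.065 with library totals. It rests on about 316 and 340 fragments, among the best measured members. Itgae, the CD103 integrin chain of tissue-resident T cells and of a dendritic cell subset, was at 0.108, 0.0804 and 0.172 FPKM in Prdx1C52S, against 0.295, 0.760 and 0.155 FPKM in WT (log2 fold change -1.36, edgeR adjusted p = 0.183, and -0.70 without WT 8). Haspin lies over it on the other strand.

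**Figure D2:**
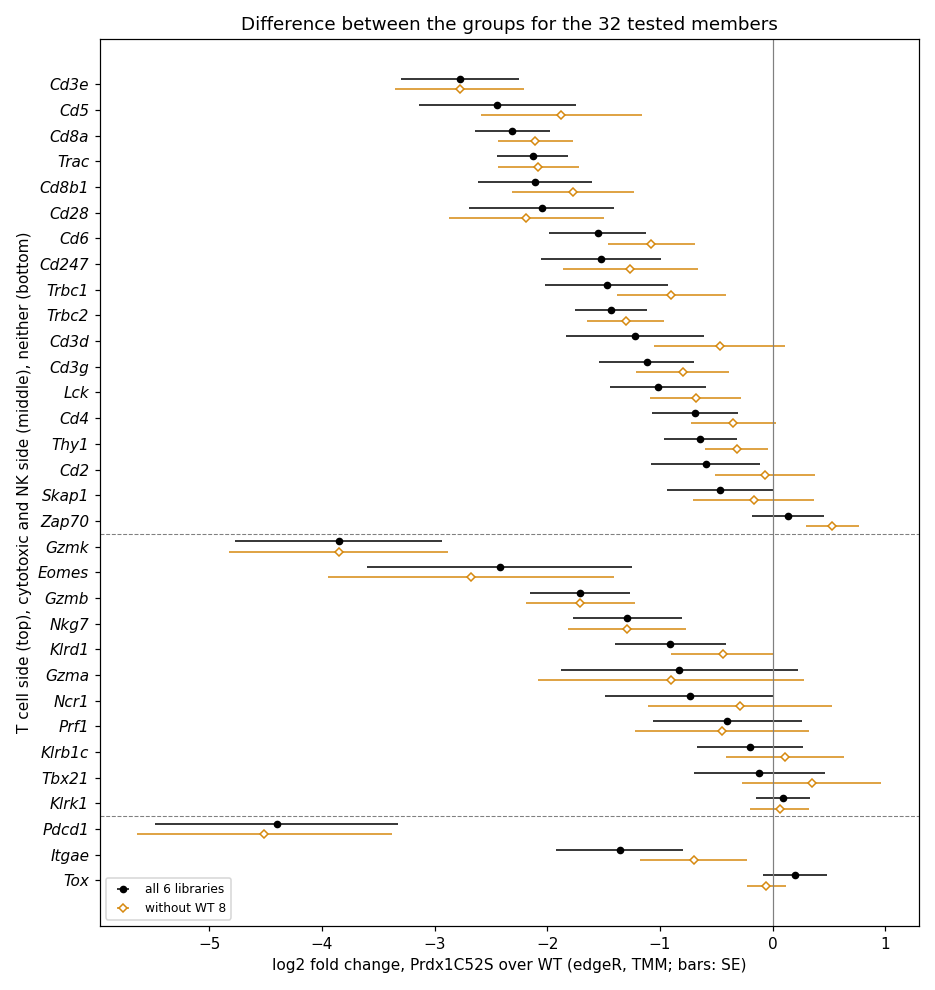
Log2 fold change (Prdx1C52S over WT) of the 32 tested members with its SE, for all 6 libraries (black) and without WT 8 (orange), with the T cell side at the top, the cytotoxic and NK side in the middle and the 3 other genes at the bottom. Trac, Cd3e, Cd8a, Cd8b1, Cd5, Cd28, Gzmk, Gzmb, Eomes and Pdcd1 have a log2 fold change of -1.71 or below with and without WT 8, and Cd3d, Cd2 and Itgae move towards 0.

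The T cell side and the cytotoxic and NK side were set beside each other. On the T cell side 12 of 18 genes (66.7%) were lower at an unadjusted p under 0.05, and on the cytotoxic and NK side 3 of 11 tested (27.3%), against 14.8% of all genes. Median log2 fold changes were -1.45 on the T cell side and -0.83 on the cytotoxic and NK side, and -0.99 and -0.67 without WT 8, with a median over all genes of -0.03 and -0.01. In FPKM, each Prdx1C52S library lay below each WT library for 14 of 18 T cell side genes (77.8%) and 4 of 12 cytotoxic and NK genes (33.3%), against 36.7% of all genes tested. After TMM scaling these were 11 of 18 (61.1%) and 2 of 11 (18.2%), against 18.0% of all genes, so the share on the cytotoxic and NK side was near that of all genes on both scales. The difference between the sides was not tested.

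Summed over each side, the levels of both were lower in Prdx1C52S. The cytotoxic and NK genes summed to 2.24, 2.59 and 3.30 FPKM in Prdx1C52S 1, 2 and 4, against 7.55, 9.34 and 4.81 FPKM in WT 6, 8 and 9. The T cell genes without Zap70 summed to 3.47, 4.59 and 5.29 FPKM in Prdx1C52S, against 13.3, 22.9 and 9.26 FPKM in WT. Group means had a ratio of 0.375 for the cytotoxic and NK genes and 0.294 for the T cell genes without Zap70 (0.363 with it), and both sums were separate between the groups. Zap70 was left out after its values were seen, since it made up 24.8% to 37.7% of the T cell sum in Prdx1C52S libraries and 7.97% to 15.7% in WT libraries. Within each library, the T cell sum without Zap70 was 1.55, 1.77 and 1.602 times the cytotoxic and NK sum in Prdx1C52S, against 1.76, 2.46 and 1.93 times in WT, and these ranges overlapped.

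The pan-leukocyte gene Ptprc, which encodes CD45, was also lower in FPKM in each Prdx1C52S library: it was at 1.17, 1.10 and 1.22 FPKM in Prdx1C52S, against 2.74, 3.00 and 2.12 FPKM in WT (edgeR log2 fold change -0.86 with SE 0.11, adjusted p = 0.0553). Divided by Ptprc, the cytotoxic and NK sum was 1.91, 2.35 and 2.70 in Prdx1C52S, against 2.75, 3.12 and 2.27 in WT, and the groups overlapped. The whole T cell sum was 4.74, 5.53 and 5.83 per Ptprc in Prdx1C52S, against 5.26, 8.81 and 5.19 in WT, and these groups overlapped too. Without Zap70 it was 2.96, 4.16 and 4.32 per Ptprc in Prdx1C52S, against 4.84, 7.66 and 4.37 in WT. That separation rests on leaving out Zap70 and on the small gap between Prdx1C52S 4 and WT 9.

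**Figure D3:**
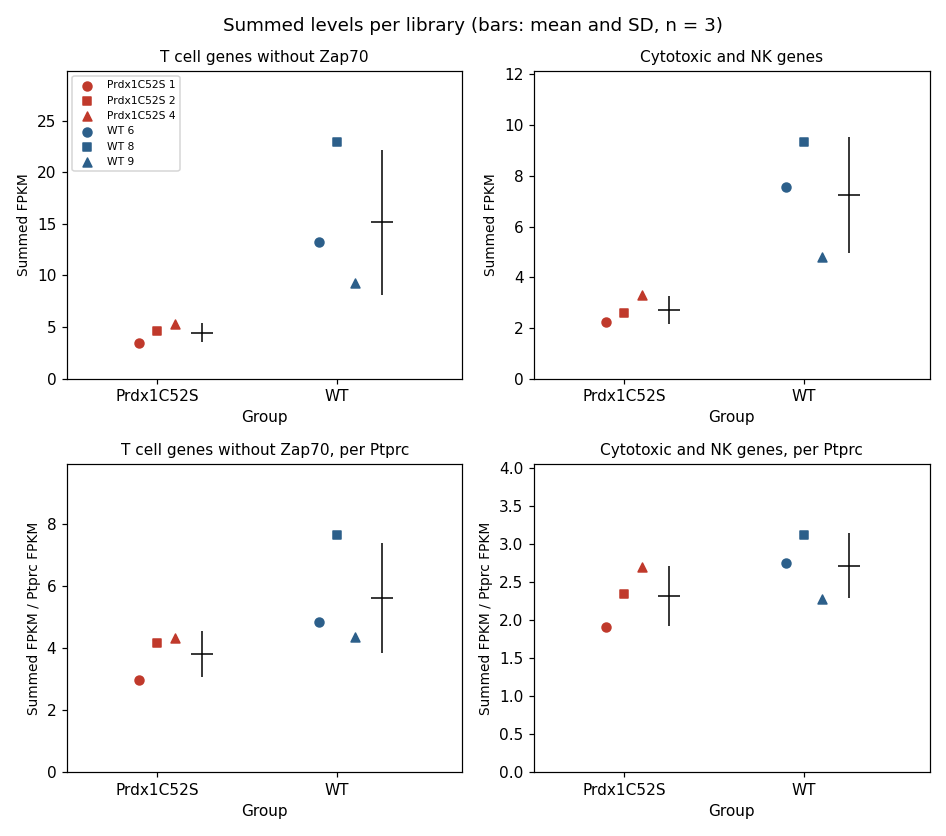
Summed FPKM of the T cell genes without Zap70 (left) and of the cytotoxic and NK genes (right), as such (top) and divided by Ptprc FPKM (bottom), per library, with the mean and SD of each group (n = 3). Top panels show separate groups. Divided by Ptprc, the cytotoxic and NK genes overlap, at 1.91 to 2.70 in Prdx1C52S and 2.27 to 3.12 in WT.

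Single genes behaved differently from each other relative to Ptprc. Trac per Ptprc was 0.253, 0.293 and 0.280 in Prdx1C52S, against 0.657, 0.718 and 0.641 in WT, tight in both groups and wide apart. Cd4 per Ptprc was 0.104, 0.168 and 0.139 in Prdx1C52S, against 0.0771, 0.173 and 0.121 in WT, with mixed groups. Klrk1 per Ptprc ran the other way, with 0.268, 0.322 and 0.197 in Prdx1C52S, against 0.125, 0.128 and 0.152 in WT. The ratio of Cd8a to Cd4, per length, was 1.08, 1.08 and 0.942 in Prdx1C52S, against 4.76, 2.88 and 2.57 in WT. The ratio of the CD8 chains, Cd8a to Cd8b1, was mixed, at 1.94, 1.06 and 1.11 in Prdx1C52S and 2.01, 1.24 and 1.12 in WT. Over 6 such ratios, chosen after the levels were seen, an exact two-sided permutation test gave p = 0.1 for Trac, Cd8a and Klrk1 per Ptprc and for Cd8a to Cd4, the smallest p that 3 against 3 libraries allow, 0.8 for Cd4 per Ptprc and 0.5 for Cd8a to Cd8b1 (adjusted 0.15 for the first 4, 0.8 and 0.6 by exact permutation). A ratio of 2 genes within a library does not depend on how libraries are scaled.

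**Figure D4:**
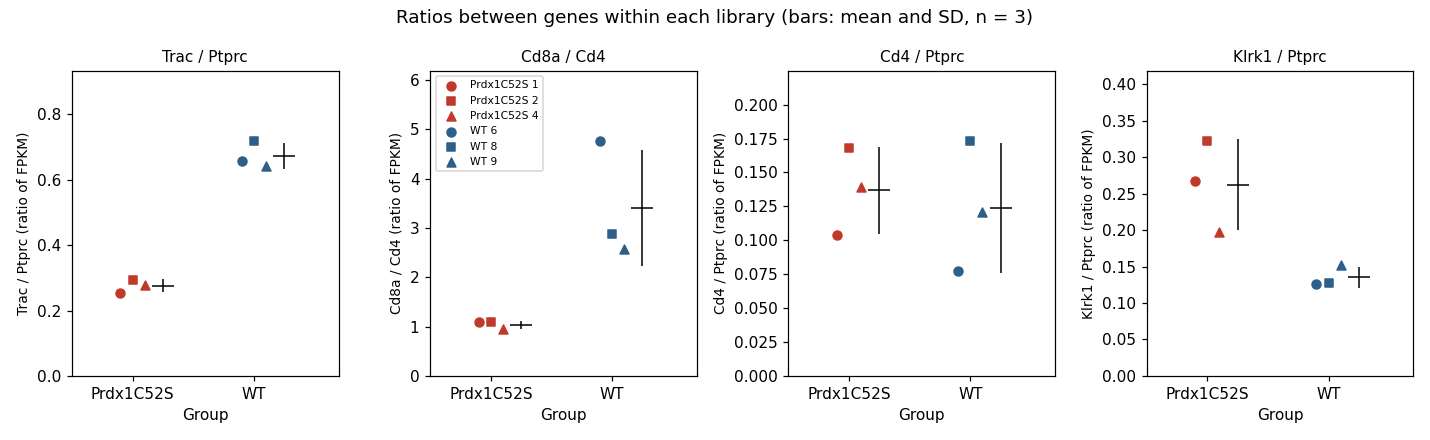
Ratios between the FPKM of gene pairs within each library, with the mean and SD of each group (n = 3). Cd8a to Cd4 is at 0.942 to 1.08 in the Prdx1C52S libraries and 2.57 to 4.76 in the WT libraries, Cd4 per Ptprc is mixed, and Klrk1 per Ptprc is higher in every Prdx1C52S library.

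Of 7 lists of other T and NK cell genes, written from textbook knowledge with earlier results of these data known, no gene passed an adjusted p of 0.05 in edgeR with all 6 libraries. Over the 90 of these genes that were tested, 37 were lower and 4 higher at an unadjusted p under 0.05, against 14.8% of all genes lower and 11.5% higher. Their median log2 fold change was -0.63. When WT 8 was left out, 27 were lower at an unadjusted p under 0.05 (11.1% of all genes), and the median was -0.55. In that fit edgeR called 4 lower and 0 higher at an adjusted p under 0.05, against 1.94% and 2.7% of all genes. DESeq2 called 18 lower and 4 higher at an adjusted p under 0.05 (9.06% and 6.11% of the genes it gave one). Counts without WT 8 and by DESeq2 are over all of the 100 measured list genes that those fits tested, not the 90. The counts for the single lists that follow are at an unadjusted p under 0.05, with all 6 libraries unless stated, and are to be read against 14.8% lower and 11.5% higher. T cell receptor signalling genes had 11 of 20 lower and 0 higher. Fyb, an adaptor that macrophages also use, was at 1.80, 1.74 and 1.67 FPKM in Prdx1C52S, against 3.94, 3.68 and 3.84 FPKM in WT (log2 fold change -0.85, edgeR adjusted p = 0.0601). Among 14 tested chemokine receptors and ligands 8 were lower and 1 higher. Co-stimulatory and inhibitory receptors had 3 of 14 lower, with Havcr2 (TIM-3) at a log2 fold change of -1.35 and Tigit at -2.35.

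Further NK cell and granule genes had 4 of 12 tested lower and 1 higher, and 8 of the 20 written were too low to test. The granule protease gene Ctsw was at 0.278, 0.347 and 0.391 FPKM in Prdx1C52S, against 1.02, 2.13 and 0.828 FPKM in WT (log2 fold change -1.61, edgeR adjusted p = 0.0842). Cytokine receptors and ligands had 5 of 12 lower and 1 higher, lymphoid transcription factors 5 of 14 lower and 1 higher, with Runx3 at a log2 fold change of -1.04 (edgeR adjusted p = 0.105). Without WT 8, 2 of the transcription factors were lower, against 11.1% of all genes. Of the gamma delta T cell receptor genes, 5 of 8 were in the table and 4 tested, with 1 lower. This was Trgc2, at 0, 0.0328 and 0.0616 FPKM in Prdx1C52S, against 0.339, 1.98 and 0.625 FPKM in WT (edgeR adjusted p = 0.0844).

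Markers of other cells also differed between the groups, and their part in the members' values was not tested. Of 8 pan-leukocyte genes, 7 were lower at an unadjusted p under 0.05 (14.8% of all genes lower, 11.5% higher, to be read beside each list here), with a summed level of 42.8 to 49.7 FPKM in Prdx1C52S and 75.7 to 89.8 FPKM in WT. Of 8 macrophage genes 6 were lower (191 to 226 FPKM in Prdx1C52S and 435 to 495 FPKM in WT), and of 8 dendritic cell genes 4 (4.98 to 6.62 FPKM in Prdx1C52S and 8.69 to 13.6 FPKM in WT), among them Xcr1 of the subset that carries CD103. Without WT 8, edgeR called 6 of the pan-leukocyte and 7 of the macrophage genes lower at an adjusted p under 0.05. In that fit 1.94% of all genes were called lower and 2.7% higher. In the same fit 1 of the 8 dendritic cell genes was lower at an unadjusted p under 0.05, against 11.1% of all genes. The log2 fold change of Xcr1 in that fit was -0.64, against -1.17 with all libraries (edgeR adjusted p = 0.406 and 0.17). B cell genes had 2 of 11 lower and 1 higher (14.9 to 28.9 FPKM in Prdx1C52S and 12.8 to 23.1 FPKM in WT). Without WT 8, 1 of the 11 was lower at an unadjusted p under 0.05, against 11.1% of all genes. Neutrophil genes had 2 of 6 lower (4.98 to 17.4 FPKM in Prdx1C52S and 20.1 to 24.8 FPKM in WT). Kupffer cell genes had 0 of 6 lower, with median log2 fold changes of 0.34 and, without WT 8, -0.18. They summed to 166 to 214 FPKM in Prdx1C52S, against 247, 36.3 and 278 FPKM in WT 6, 8 and 9. Without WT 8, 1 of the 6 was lower at an unadjusted p under 0.05, against 11.1% of all genes. All 8 bile duct genes were lower (3.32 to 7.34 FPKM in Prdx1C52S and 11.4 to 113 FPKM in WT), and WT 8, which was highest for most members, held the 113. The median log2 fold change of these 8 was -3.05, and -1.57 without WT 8. Krt19 in that library was at 30.9 FPKM, against 3.97 in WT 6 and 2.09 in WT 9. Every gene measured had a count above 0 in at least 1 library, so these lists could hold no gene at 0 throughout. Of the 8 hepatocyte genes written, 7 were measured. The hepatocyte genes matched the labelled tissue, with Alb at 20760 to 22278 FPKM in Prdx1C52S and 18116 to 19647 FPKM in WT.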

How the data were processed

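The deposited table holds, per the file headers, FPKM and estimated counts for each gene in each library. FPKM was scaled by the authors to transcript length and depth. Low estimated counts peak at 4 (6204 values, beside 3538 at 3 and 1965 at 5), which was read as 1 fragment being worth about 4 of them. Values of 1 and 2 were also frequent (5315 and 3954), and 8 showed no like peak (2568, beside 2334 at 7). The factor is therefore approximate, and the fragment numbers and their intervals depend on it. Without giving roles, the submitters' processing notes list StringTie 1.3.4d, HISAT2 2.0.4, cutadapt 1.9, edgeR, DESeq2, UMI-tools and the build mm9. Coordinates are nevertheless those of GRCm38: 25866 of 29734 genes and 28 of 33 members have identical positions in GENCODE release M21. Whether counting used molecular identifiers or the strand is not given in the sources used here. Another annotated gene shares bases with 5 members in sense and with 8 in antisense.

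Rounded to whole numbers, the deposited estimated counts entered edgeR 4.0.16 (R 4.3.3): filterByExpr, TMM, robust quasi-likelihood fit, two-sided F-test, Benjamini-Hochberg adjustment over 18931 genes, threshold 0.05, no covariate. TMM factors were 0.883 to 0.920 in Prdx1C52S and 1.03 to 1.28 in WT. SE is the absolute log2 fold change over the root of F. Fragments are counts divided by 4, with exact (Clopper-Pearson based) 95% intervals for ratios. DESeq2 1.42.0, limma 3.58.1 (voom, and log2 FPKM with pseudocounts of 1 and 0.1), other scalings, filters and each library left out were alternatives. The edgeR fit was tested on counts simulated with a smaller spread between libraries than these data have. That test therefore does not show how the fit performs on these libraries. The members, lists and choices were made with earlier results of these data known. Genes named are all members, up to 3 genes of each other list with the smallest p and a mean of at least 0.1 FPKM, and genes of a fixed panel (among them Ptprc, Ms4a1, Xcr1 and Krt19), of which some are not reported here. The ratios between genes, the T cell sum without Zap70 and the comparison on TMM-scaled CPM were chosen after seeing the data.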

Additional observations from a re-analysis of the deposited data

How the results depend on the processing

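No member was called with RLE factors, without robust estimation, or without Prdx1C52S 1, 2 or 4 or WT 6. In these fits 0% of all genes were called in either direction. For the other fits below, the shares of all genes called at an adjusted p under 0.05 stand with the results above. The number of members called lower at an adjusted p under 0.05, 0 in edgeR with all libraries, was 11 by DESeq2, 9 by voom with library quality weights, 1 and 5 by limma on log2(FPKM + 1) and log2(FPKM + 0.1), and 2 each with library totals, without a low-count filter, with a filter of CPM of at least 1 in 3 libraries and with counts divided by 4. Leaving out 1 library gave 0 to 3 (3 without WT 8, 1 without WT 9), 11 (without Prdx1C52S 1) to 19 members lower at an unadjusted p under 0.05, and 23 to 39 of the other pathway genes (24 without Prdx1C52S 2, 23 without Prdx1C52S 4). The strict filter left 13 members, 8 of them lower at an unadjusted p under 0.05. Among the leave-one-out fits, the share of all genes at that unadjusted threshold was computed only without WT 8 (11.1% lower, 11.2% higher). For the other leave-one-out fits and the strict filter it was not computed, so those counts have no share to be read against. They do not show how the members stand beside other genes. Medians over leave-one-out fits ran from -1.66 to -0.99 (without WT 8) on the T cell side and from -1.30 (without Prdx1C52S 4) to -0.45 on the cytotoxic and NK side, and limma on log2(FPKM + 1) gave -0.38 and -0.23, since that pseudocount exceeds most members' levels. Relative to Ptprc, the log2 ratio of group means was -0.26 for the T cell side, against -1.46 in FPKM, and -0.23 for the cytotoxic and NK side, against -1.42. In FPKM, the T cell value without Zap70 was -1.77, and relative to Ptprc the group means without Zap70 had a ratio of 0.678, against 0.837 with it.

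Of single members, 5 of 32 changed sign, none of them called in any setting. Zap70 was at -0.075 and -0.072 by limma on log2(FPKM + 1) and log2(FPKM + 0.1), -0.21 with library totals, and -0.12 (without WT 6) to 0.53 with 1 library left out. Klrk1 was at -0.050 and -0.16 in the limma fits, -0.21 with library totals, and -0.038 (without Prdx1C52S 2) to 0.23 with 1 left out. Tox was at -0.020 and -0.031 in the limma fits, -0.065 with library totals, and -0.056 (without WT 8) to 0.39 with 1 left out. Tbx21 was at 0.52 by voom and at -0.48 to 0.35 with 1 left out (0.17 without Prdx1C52S 1, 0.35 without WT 8), and Klrb1c at -0.50 to 0.11 (0.11 without WT 8). The cause was not tested. No paired analysis was possible because the groups share no replicate numbers. Depth limits Pdcd1, Gzmk and Ifng most, with 2, 3 and 3 fragments in Prdx1C52S.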

Other observations

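Against the prevailing direction, 4 of the 90 other T and NK cell genes were higher in Prdx1C52S at an unadjusted p under 0.05 in edgeR. None had an adjusted p under 0.05 in edgeR, while DESeq2 called 4 of the 100 measured higher at that threshold. In each of the 4 from edgeR the groups overlapped in FPKM, a scale on which 77.5% of all genes tested had a lower mean in Prdx1C52S. They were Nfil3, a factor of NK cell development that hepatocytes also express (log2 fold change 0.89, edgeR adjusted p = 0.108), S1pr1, a receptor of lymphocyte exit that is abundant in endothelium (0.56, edgeR adjusted p = 0.0934), the cytokine gene Il18 (0.49, edgeR adjusted p = 0.114) and Zbtb7b, a helper T cell factor (0.42, edgeR adjusted p = 0.107). S1pr1 lay at 11.7, 16.4 and 14.7 FPKM in Prdx1C52S and 10.4, 14.5 and 11.0 FPKM in WT, far above any member.

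By the Pearson correlation of log2(FPKM + 0.1) over the 6 libraries, among 18727 genes outside the members, the profiles most like that of Cd3e were those of Mcl1 (0.999), Tlr9 (0.998), Hps4 (0.997), Pde1a (0.996) and Rin2 (0.995). The closest to Ncr1 were 2810047C21Rik1 (0.992), Gm42547 (0.989), Rpl13-ps6 (0.983), Tubg2 (0.980) and A730020M07Rik (0.980). With 6 points that share depth and scaling, such values are a description.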
